A study of Homo sapiens with 6 samples.

Results

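The genes described here are the nuclear-encoded genes of the mitochondrial respiratory chain. They were chosen by name alone, as protein-coding genes whose symbol starts with NDUFA, NDUFB, NDUFC, NDUFS, NDUFV, UQCR, COX4, COX5, COX6, COX7, COX8 or ATP5, together with SDHA, SDHB, SDHC, SDHD and CYC1. GENCODE release 29 holds 99 such genes under their current symbols. Of these, 61 had a row under their own Ensembl identifier among the 59192 features of the deposited table, and 60 of the 61 averaged 10 or more normalized counts over the 6 libraries and were tested. The other 38 genes were not analysed here, and 33265 of the features are loci that a transcript assembler numbered without gene names. The 38 include SDHC, SDHD, UQCRC2, UQCRH, COX5A, COX6A1, COX8A, ATP5PB and ATP5PO. The 61st gene, ATP5MGL, had 0, 0 and 5.65 normalized counts in the SW480-45 libraries, against 0, 0 and 1.06 in those of SW480-NC, and was too low to test.

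RNA sequencing was performed on SW480, a line from a human colorectal adenocarcinoma, after knockdown of HPSE, which encodes heparanase, the enzyme that cleaves heparan sulfate. Cells of both groups carry Cas9 with a puromycin selection marker and a lentiviral guide RNA with EGFP. The guide targets HPSE in SW480-45, whose label gives the genotype as HPSE-knockdown, and is a control guide in SW480-NC, and 3 libraries were made for each group from independent experiments. The paper calls the sequenced knockdown line SW480-KD1, made with a single guide, and it is taken to be the line labelled SW480-45. A stable line made with 1 guide cannot separate the loss of HPSE from other properties of that line.

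Between 33221323 and 39802365 reads per library were counted in the table. HPSE, at chr4:83292461-83335153, was counted at 136, 172 and 146 (normalized) in the knockdown libraries, against 270, 295 and 246 in the controls. Its log2 fold change was −0.83 ± 0.14 (SE), with an adjusted p of 0.0547 (limma), so every knockdown library lay below every control library while the adjusted p did not pass 0.05. Of 8 markers of colon epithelium, 5 had a row, and all 5 were detected in every library, from CDX2 with a mean of 31.4 to KRT8 with a mean of 81461 normalized counts. Together they made up 0.306% to 0.322% of the counts in SW480-45 and 0.338% to 0.350% in SW480-NC. Of 7 markers of other cell types, 4 had a row, with CDH5 and ALB at 0 in 5 of the 6 libraries each, PECAM1 at a mean of 14.5 and COL1A1 at a mean of 264 normalized counts. Their sum was 0.000707% to 0.00106% of the counts in SW480-45 and 0.000563% to 0.000731% in SW480-NC. The part of these markers in the results below was not tested.

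The respiratory chain sits in the inner mitochondrial membrane. Complex I takes electrons from NADH and complex II from succinate, ubiquinone carries them to complex III, and cytochrome c carries them on to complex IV, which reduces oxygen to water. Complexes I, III and IV pump protons across the membrane, and complex V, the ATP synthase, lets them flow back to make ATP. Most subunits are made in the cytosol from nuclear genes and imported, and have to be assembled with a small set of subunits encoded by mitochondrial DNA. Promoters of many of these nuclear genes carry binding sites for nuclear respiratory factor 1 (NRF1) and for ETS family factors such as GABP.

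Promoters, taken as 300 bases from 250 before to 50 after the RefSeq start site on GRCh38.p14, were found for 78 of the 99 genes and searched on both strands. TGCGCA, the centre of the NRF1 site, was present in 22 of the 78 promoters (28.2%), against 8.42% of all 27305 promoters and 13.1% of those of 7930 protein-coding genes tested. The ETS sequence CCGGAAG was present in 26.9% of the 78, against 10.7% of all promoters and 18.4% of those of the tested genes. The sequence ATGGCGG, bound by YY1, was present in 25.6%, against 5.72% and 10.2%. The 78 include genes that were not tested. Among the promoters of the 46 that were tested, the shares were 30.4% for TGCGCA, 26.1% for the ETS sequence and 21.7% for the YY1 sequence. Such a match is a description of the letters and not of binding. The 2 promoter stretches printed here hold TGCGCA, shown in capitals, before the start site of genes that were higher in SW480-45 at an unadjusted p under 0.05. The match begins 154 bases before the start site of NDUFB4 (chr3:120596142-120596227, plus strand) and 220 bases before that of ATP5ME (chr4:674451-674526, minus strand).
NDUFB4: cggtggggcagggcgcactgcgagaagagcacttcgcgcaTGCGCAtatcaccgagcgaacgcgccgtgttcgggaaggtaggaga
ATP5ME: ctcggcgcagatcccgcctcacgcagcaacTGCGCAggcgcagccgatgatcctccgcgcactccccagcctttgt
Of the 11 genes at an unadjusted p under 0.05, 9 had a promoter in the table, and TGCGCA was present in those of NDUFB4, ATP5ME and COX7C, and the ETS sequence in those of NDUFA1, ATP5ME and COX6B1. UQCR10 held the YY1 sequence, and the promoters of NDUFB3, ATP5F1E and NDUFA2 held none of the 3. COX6C and NDUFS5 had no entry. Of the 9 promoters, 33.3% held TGCGCA, 33.3% the ETS sequence and 11.1% the YY1 sequence. Beside these stood 30.4%, 26.1% and 21.7% of the 46 promoters of tested genes of the chain.

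Nuclear respiratory chain transcripts lay mostly on the higher side in SW480-45 by small amounts. The log2 fold change (SW480-45 minus SW480-NC) was above 0 for 49 of the 60 genes and below 0 for 11, with a median of 0.12 and a range from −0.32 to 0.71, whereas the median over all 21703 features tested was −0.0048. A single gene, NDUFB3, passed an adjusted p of 0.05, where 0.802% of all features did. At an unadjusted p under 0.05, 11 of the 60 genes (18.3%) were higher in SW480-45, beside 8.1% of all features, and 0 were lower, beside 8.15% of all features. The count of lower genes was also 0 with edgeR and with DESeq2 on the recovered reads. The 3 libraries of SW480-45 all lay above the 3 of SW480-NC for 15 genes (25%), beside 11.4% of all features, and all below for 0 genes, beside 12% of all features. DESeq2 placed 5 genes above the adjusted threshold, all higher in SW480-45 (ATP5F1E, ATP5ME, COX6C, NDUFA1 and NDUFB3), beside 1.83% of all features that were higher. With edgeR 0 genes were placed there, beside 136 of all 21703 features, and 13 were higher at an unadjusted p under 0.05. The shares of all features at the unadjusted threshold with edgeR and with DESeq2 are not given here. For none of the 60 genes can fewer cells with a transcript and less of it per cell be told apart in these bulk libraries.

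**Figure D1:**
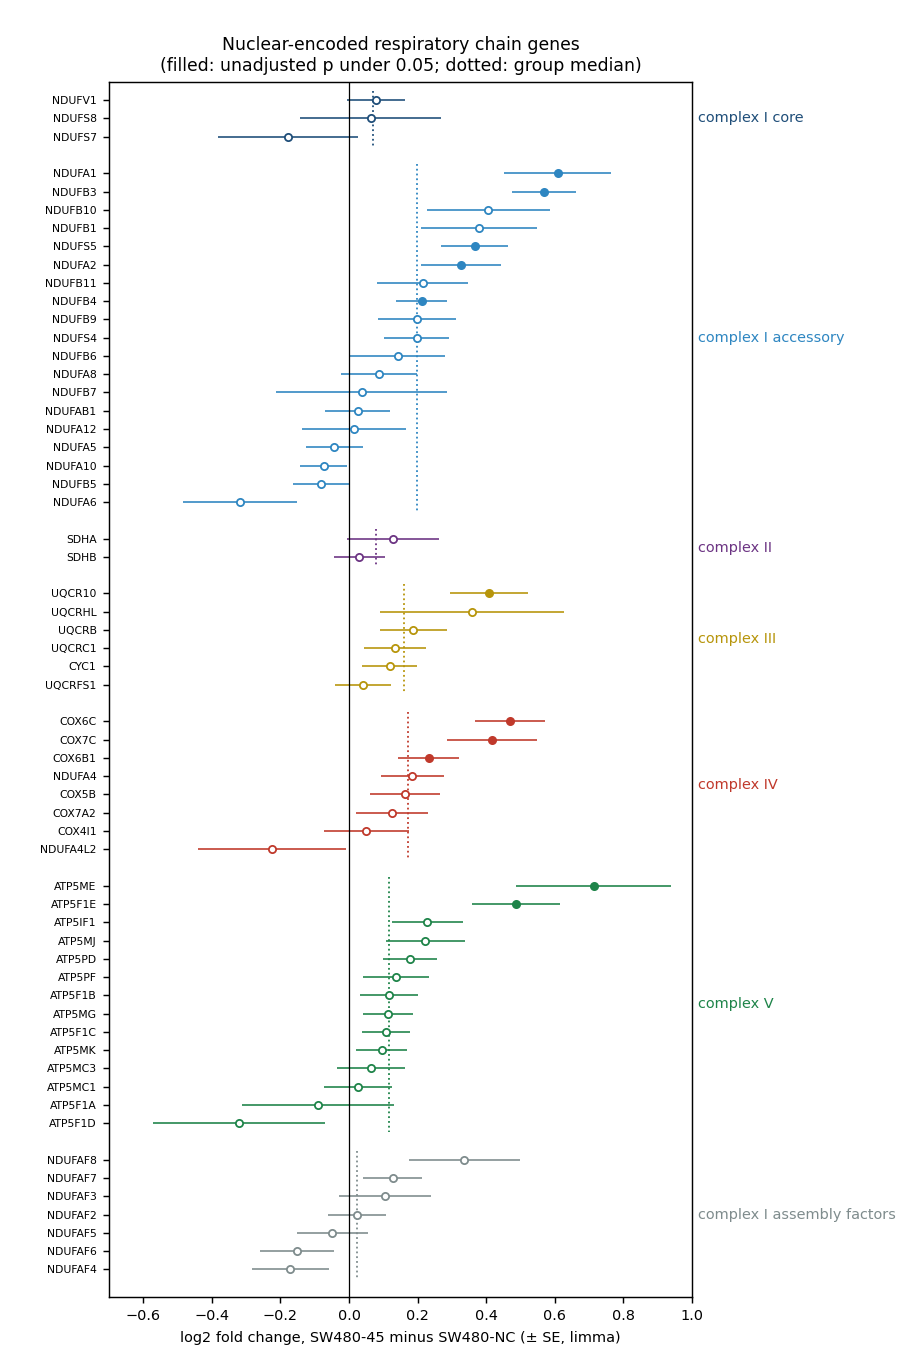
Log2 fold change of the genes tested, leaving out 1 that is not reported by name, SW480-45 minus SW480-NC, on the horizontal axis, each point with its SE from limma and grouped by complex. Filled points mark the 11 genes with an unadjusted p under 0.05, all to the right of 0, and dotted lines mark the group medians, from 0.02 for the complex I assembly factors to 0.20 for the accessory subunits of complex I.

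Complex I is built around a core that carries the flavin and iron-sulfur clusters, surrounded by accessory subunits that help to assemble and hold it. Of 7 nuclear core genes, 4 were tested, and none passed an unadjusted p of 0.05, with a median log2 fold change of 0.07 that was −0.02 without the second SW480-45 library. NDUFS7, which holds the last iron-sulfur cluster before ubiquinone, had 680.1, 650.2 and 503 normalized counts in SW480-45 and 916, 648 and 543 in SW480-NC, for a log2 fold change of −0.18 ± 0.21 (SE). The libraries of the 2 groups overlapped, and the first control library was the highest of the 6. NDUFV1, the flavin-binding subunit that accepts electrons from NADH, and NDUFS8, an iron-sulfur subunit, had log2 fold changes of 0.08 ± 0.09 and 0.06 ± 0.21.

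The accessory subunits of complex I were the group with the most genes tested. Of 31 genes, 19 were tested and 15 had a log2 fold change above 0, beside 49 of all 60 genes. At an unadjusted p under 0.05, 5 were higher. The median was 0.20, which was 0.11 without the second SW480-45 library. NDUFB3 (chr2:201071433-201085750), a small subunit of the membrane arm, had 1012, 1006 and 1142 normalized counts in the SW480-45 libraries, against 694, 745 and 687 in those of SW480-NC. The lowest SW480-45 library exceeded the highest SW480-NC library by more than the spread within either group. NDUFB3 rose by a log2 fold change of 0.57 ± 0.09 (SE; 95% interval 0.35 to 0.79), from 708 ± 31.5 to 1053 ± 76.7 normalized counts (mean ± SD), with an adjusted p of 0.0474 (limma), although that adjusted p lay between 0.0858 and 0.161 when any 1 library was left out and was 0.185 at the highest over all alternatives.

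NDUFA1 (chrX:119871487-119876662), an X-linked subunit needed for assembly of the complex, had 1522, 1329 and 1122 normalized counts in SW480-45 and 713, 981 and 912 in SW480-NC. Its log2 fold change was 0.61 ± 0.16 (SE), with an adjusted p of 0.133, and its 2 groups did not overlap. NDUFS5 (chr1:39026318-39034636), a subunit on the intermembrane-space side, had 6875, 7339.6 and 6114 in SW480-45 and 4817, 5130.2 and 5823 in SW480-NC, for a log2 fold change of 0.37 ± 0.10 (SE) and an adjusted p of 0.141. It had the highest counts of the accessory genes tested. NDUFA2 (chr5:140638740-140647785), a subunit of the matrix arm, had 1265, 1052 and 1103 in SW480-45 and 812, 907 and 1010.5 in SW480-NC, for a log2 fold change of 0.33 ± 0.12 (SE) and an adjusted p of 0.235. NDUFB4 (chr3:120596309-120602500), in the membrane arm, had 2547, 2454 and 2366 in SW480-45 and 2048, 2071 and 2240.5 in SW480-NC, for a log2 fold change of 0.21 ± 0.07 (SE) and an adjusted p of 0.232. In all 4 genes the lowest SW480-45 library lay above the highest SW480-NC library, and the third SW480-NC library was the nearest to the SW480-45 libraries in 3 of them, all but NDUFA1.

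Other accessory subunits did not pass. NDUFB10 and NDUFB1, both of the membrane arm, had log2 fold changes of 0.41 ± 0.18 and 0.38 ± 0.17 (SE), with the groups overlapping in each. NDUFS4, a subunit whose loss causes complex I deficiency, had 951, 962 and 1098 normalized counts in SW480-45 and 837, 914 and 872 in SW480-NC, which did not overlap, and a log2 fold change of 0.20 ± 0.09 (SE) with an adjusted p of 0.352. The other 10 accessory subunits tested had log2 fold changes from −0.08 (NDUFB5) to 0.21 (NDUFB11), with overlapping groups in each, among them the acyl carrier protein NDUFAB1 at 0.03 ± 0.09 (SE). The lowest value of the group was that of NDUFA6, a matrix-arm subunit, with 1015, 1029.5 and 924 in SW480-45 and 1409, 1419 and 937 in SW480-NC, for a log2 fold change of −0.32 ± 0.17 (SE). The third SW480-NC library of NDUFA6 fell among the SW480-45 libraries, and without it the log2 fold change was −0.52, with an adjusted p of 0.0777. It was between −0.35 and −0.22 when any other library was left out.

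Among the assembly factors of complex I, which the NDUFA prefix takes in although they are not subunits of the finished complex, 7 of 8 were tested. None passed an unadjusted p of 0.05, and the median log2 fold change was 0.02, and −0.02 without the first SW480-45 library. NDUFAF8, a small factor, had 466, 428 and 336 normalized counts in SW480-45 and 361, 333 and 277 in SW480-NC, for a log2 fold change of 0.34 ± 0.16 (SE), and NDUFAF4 stood at the other end with −0.17 ± 0.11. NDUFAF2, the factor with the highest counts, had 1281, 1189 and 1157 in SW480-45 and 1142, 1247 and 1181 in SW480-NC, for a log2 fold change of 0.02 ± 0.08 (SE). The other 4 factors lay between −0.15 (NDUFAF6) and 0.13 (NDUFAF7). Without the assembly factors, 45 of the remaining 53 genes had a log2 fold change above 0, with a median of 0.13.

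Complex II oxidizes succinate in the tricarboxylic acid cycle, and 2 of its 4 genes were tested. SDHA, the flavoprotein, had 14649, 15797 and 13888 normalized counts in SW480-45 and 11453, 12829 and 16762 in SW480-NC, for a log2 fold change of 0.13 ± 0.13 (SE). The third SW480-NC library was the highest of the 6. SDHB, the iron-sulfur subunit, had 2626, 2653 and 2555 in SW480-45 and 2675, 2393 and 2611 in SW480-NC, for 0.03 ± 0.07 (SE). Neither gene separated the groups. A pseudogene of SDHA held 11.0% of the counts of the gene and pseudogene together, and SDHA was the only one of 29 tested genes with pseudogene rows for which this share was above 10%.

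Complex III passes electrons from ubiquinol to cytochrome c, and 6 of its 10 genes were tested, all with a log2 fold change above 0 and with a median of 0.16, which was 0.08 without the first SW480-NC library. UQCR10 (chr22:29767369-29770413), its smallest subunit tested here by coding length, had 5067, 5235 and 4338 normalized counts in SW480-45 and 3188, 3788 and 4068 in SW480-NC. The groups did not overlap, and the log2 fold change was 0.41 ± 0.11 (SE), with an adjusted p of 0.152. The Rieske iron-sulfur protein UQCRFS1 had 3911, 3972 and 3413 in SW480-45 and 3651, 3494 and 3818 in SW480-NC, for 0.04 ± 0.08 (SE). UQCRB, the core protein UQCRC1 and cytochrome c1 (CYC1) had log2 fold changes of 0.19 ± 0.10, 0.13 ± 0.09 and 0.12 ± 0.08 (SE), each with overlapping groups. UQCRHL, at 0.36 ± 0.27, is a near copy of UQCRH, and reads of the 2 genes may have been split between them, so its value is uncertain.

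Complex IV had the highest share of genes past the unadjusted threshold, 3 of 8 tested, of 19 by the rule, with a median log2 fold change of 0.17. COX6C had 1343, 1356 and 1135 normalized counts in SW480-45 and 859.8, 949 and 951 in SW480-NC, for a log2 fold change of 0.47 ± 0.10 (SE) and an adjusted p of 0.0997. COX7C (chr5:86617904-86620962) had 4611, 3408 and 3403 in SW480-45 and 2588, 2853 and 3043 in SW480-NC, for 0.42 ± 0.13 (SE) and an adjusted p of 0.195. COX6B1 (chr19:35648223-35658861) had 3338, 3398 and 3098 in SW480-45 and 2521, 2859 and 3009 in SW480-NC, for 0.23 ± 0.09 (SE) and an adjusted p of 0.257. COX6C, COX7C and COX6B1 are small nuclear subunits that surround the mitochondrially encoded catalytic core. In each of the 3 the groups did not overlap, and in COX7C the first SW480-45 library stood above the other 5.

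The remaining complex IV genes did not pass. COX4I1, a subunit with a regulatory role in the enzyme, had 3468, 3639.6 and 3817 normalized counts in SW480-45 and 3045, 3348 and 4251 in SW480-NC, for a log2 fold change of 0.05 ± 0.12 (SE). COX5B and COX7A2 had log2 fold changes of 0.16 ± 0.10 and 0.12 ± 0.11. NDUFA4, named for complex I but placed with complex IV, had 0.18 ± 0.09 (SE). Its paralog NDUFA4L2 was the lowest in the group, with 68.5, 77.7 and 57.5 in SW480-45 and 63.8, 95.6 and 80.6 in SW480-NC, for −0.23 ± 0.22 (SE).

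Complex V consists of the catalytic F1 head, a stalk and a membrane part that carries the proton channel. Of 20 genes, 14 were tested, 12 had a log2 fold change above 0, and 2 were higher at an unadjusted p under 0.05, with a median of 0.12. ATP5ME (chr4:672436-674338), a small subunit of the membrane part, had 838, 876 and 516 normalized counts in SW480-45 and 357, 478 and 503 in SW480-NC. It had the highest log2 fold change of the 60 genes, 0.71 ± 0.23 (SE), with an adjusted p of 0.197, and the third SW480-45 library lay just above the highest SW480-NC library, well under the other 2. ATP5F1E (chr20:59025467-59032382), the epsilon subunit, had 2958, 2544 and 2199.8 in SW480-45 and 1824, 2016 and 1633 in SW480-NC, for 0.49 ± 0.13 (SE) and an adjusted p of 0.137.

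The alpha and beta subunits of complex V had smaller differences. ATP5F1B, the beta subunit, had the highest mean count of the 60 genes, with 19323, 19768 and 20708 normalized counts in SW480-45 and 16295, 20226 and 18826 in SW480-NC, for a log2 fold change of 0.12 ± 0.08 (SE). ATP5F1A, the alpha subunit, had 8522, 8682 and 8711 in SW480-45 and 7487, 7493 and 13861 in SW480-NC, for −0.09 ± 0.22 (SE). The SW480-45 libraries of ATP5F1A lay within a narrow range, while the third SW480-NC library lay above all of the other 5. ATP5F1D, the delta subunit, was the lowest of the 60 genes, with 294, 297 and 408 in SW480-45 and 497, 505 and 278 in SW480-NC, for −0.32 ± 0.25 (SE). The third SW480-45 library was the highest of its group and the third SW480-NC library the lowest of all 6, and without that SW480-NC library the log2 fold change was −0.60, with an adjusted p of 0.175. It was −0.19 without the first and −0.17 without the second SW480-NC library, with adjusted p of 0.809 and 0.821. ATP5IF1, the inhibitor of the ATP synthase, and ATP5PD, in the stalk, had log2 fold changes of 0.23 ± 0.10 and 0.18 ± 0.08 (SE), and did not pass. The other 7 genes of complex V had log2 fold changes from 0.03 (ATP5MC1) to 0.22 (ATP5MJ), including ATP5MC1 and ATP5MC3, which both encode the ring-forming c subunit, and ATP5F1C, the gamma subunit of the rotor, at 0.11 ± 0.07 (SE).

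The third SW480-45 library had the lowest median of its group in each complex. Summed over the 60 genes, the counts were 160050 ± 5781 in SW480-45 and 146394 ± 11494 in SW480-NC (mean ± SD, n = 3), or 109% of the control. The sums by group were 104% of the control for the complex I core, 113% for its accessory subunits, 107% for complex II, 114% for complex III, 117% for complex IV, 106% for complex V and 101% for the complex I assembly factors. As a share of all counts, the 60 genes made up 0.466%, 0.455% and 0.439% in the SW480-45 libraries, against 0.377%, 0.403% and 0.430% in those of SW480-NC. The median log2 deviation from the control mean was 0.15, 0.15 and 0.04 in the SW480-45 libraries, against −0.06, 0.01 and 0.04 in those of SW480-NC, so the third library of each group lay at about the same value. Without the third SW480-45 library, 19 genes were higher at an unadjusted p under 0.05, beside 7.45% of all features. Without the third SW480-NC library 17 were higher and 2, NDUFA6 and ATP5F1D, were lower, beside 8.69% and 8.46% of all features. Without the first library of SW480-45 or the first of SW480-NC, 7 genes were higher in each case, beside 5.81% and 6.85% of all features.

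Of the 11 genes past the unadjusted threshold, 9 had fewer than 300 coding bases, a division made after the values had been seen. Of the 15 tested genes with fewer than 300 coding bases, 9 were higher at an unadjusted p under 0.05 (60%), with a median log2 fold change of 0.36. Among 133 other protein-coding genes of that length that averaged 200 or more normalized counts, leaving out genes with the prefix RPL or RPS, 25 were higher (18.8%), with a median of 0.05. Of 6 genes of that length with the prefix RPL or RPS, 5 were higher, with a median of 0.44. From 300 to 400 coding bases, 2 of 12 were higher (16.7%), beside 11.4% of the other genes. Of the 33 genes with 400 coding bases or more, 0 were higher at the unadjusted threshold, beside 7.79% of the other genes, and their median was 0.06. Of 36 RPL and RPS genes of 400 bases or more, 58.3% were higher. The 15 short genes had median log2 deviations from the control mean of 0.52, 0.41 and 0.23 in the SW480-45 libraries, against −0.12, 0.05 and 0.08 in those of SW480-NC, which did not overlap. Between 5 and 11 of the 15 were higher over the 14 alternatives, the lowest without the first SW480-NC library. Over the same alternatives 18 to 30 of the 133 other genes of that length were higher. The part of transcript length in these values was not tested.

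The values were also set beside base composition. The other protein-coding genes were again those that averaged 200 or more normalized counts, without the prefix RPL or RPS. The respiratory chain genes were not held to that level. The other genes had a median log2 fold change of −0.15 at a transcript GC content under 40% and of 0.05 from 55% to 60%. The respiratory chain genes had medians of 0.19 and 0.13 in the same ranges. From 40% to 45% the medians were −0.08 for the other genes and 0.13 for the respiratory chain, from 45% to 50% they were −0.03 and 0.04, from 50% to 55% they were 0.02 and 0.15, and at 60% or more they were 0.05 and 0.06. At a GC content of 60% or more the libraries were less alike. The SE of the log2 fold change was above 0.2 for 5 of the 9 respiratory chain genes there, against 3 of 51 under 60%, with a median SE of 0.21 against 0.10. The part of GC content in the results was not tested.

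Exons of 26 of the 60 genes share sequence with another annotated gene, including 6 of the 11 at an unadjusted p under 0.05, and the library kit used does not mark strand. NDUFB3 overlaps HYCC2, NDUFA1 overlaps RNF113A, NDUFA2 overlaps TMCO6 and IK, ATP5F1E overlaps TUBB1, and ATP5ME overlaps MYL5, each on the opposite strand. COX7C overlaps the small nucleolar RNA SNORD138 on the same strand. Reads from the shared parts cannot be assigned to 1 gene from these counts.

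Other genes of mitochondrial energy metabolism were not on the higher side as often, though no difference between lists was tested. Of 42 assembly factors of the respiratory chain outside the symbol rule, 26 were tested. Among the 26, 6 had a log2 fold change above 0, with a median of −0.03. At an unadjusted p under 0.05, 0 were higher, beside 8.1% of all features, and 1, TMEM126B, was lower, beside 8.15%. The lowest was COA1, at −0.30 ± 0.15, and the highest UQCC2, at 0.36 ± 0.24 (SE), where 1 SW480-45 library at 2257 normalized counts stood above the other 5. No gene of these other lists passed an adjusted p of 0.05 (limma).

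Of the 13 subunits encoded by mitochondrial DNA, 6 were tested, and 2 of them had a log2 fold change above 0, with a median of −0.08. MT-ND2, a membrane core subunit of complex I, had 148174, 155647 and 142340 normalized counts in SW480-45 and 183094, 163497 and 163974 in SW480-NC, for −0.19 ± 0.06 (SE) and an adjusted p of 0.184. MT-ND3, another core subunit, had 17904, 16750 and 13181 in SW480-45 and 13114, 14117 and 11848 in SW480-NC, for 0.28 ± 0.12 (SE) and an adjusted p of 0.304. Thus MT-ND2 separated the groups in the lower direction and MT-ND3 overlapped. Of 15 regulators of mitochondrial biogenesis, 12 were tested, and NRF1, POLG and SSBP1 had no row. Among the 12 tested, 3 had a log2 fold change above 0, with a median of −0.09. At an unadjusted p under 0.05, 0 were higher and 2 were lower, beside 8.1% and 8.15% of all features. The 2 lower genes were the subunits of GABP, GABPA at −0.24 ± 0.09 and GABPB1 at −0.28 ± 0.10 (SE). POLRMT, the mitochondrial RNA polymerase, was the highest, at 0.12 ± 0.12.

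Of 13 tricarboxylic acid cycle enzymes, 11 were tested. Their median was −0.04, with 3 above 0. At an unadjusted p under 0.05, SUCLG1 was higher at 0.22 ± 0.09 and IDH3A lower at −0.32 ± 0.13 (SE). Each was 9.09% of the 11 genes, beside 8.1% and 8.15% of all features. Of 20 electron and nucleotide carriers, 17 were tested. Their median was 0.05, with 10 above 0. At an unadjusted p under 0.05, COQ5 was higher (5.88%) and CYCS, PDSS1 and VDAC1 lower (17.6%), beside 8.1% and 8.15% of all features. CYCS, cytochrome c itself, had 6869, 7515 and 8041 normalized counts in SW480-45 and 9557, 9971 and 8663 in SW480-NC, for −0.33 ± 0.08 (SE) and an adjusted p of 0.130, without overlap between the groups. SLC25A5, an ADP/ATP carrier, was the highest of the carriers, at 0.27 ± 0.13 (SE). Of 78 mitochondrial ribosomal proteins, 56 were tested. Among the 56, 37 had a log2 fold change above 0, with a median of 0.03 and a range from −0.25 for MRPS11 to 0.31 for MRPL55. At an unadjusted p under 0.05, 1 was higher (MRPL51) and 1 lower (MRPL3), beside 8.1% and 8.15% of all features. Genes with the prefix RPL or RPS, most of them cytosolic ribosomal proteins, were added as a list after the values had been seen. They include RPS19BP1, which is not a ribosomal protein, and RPS27AP5, named as a pseudogene. Of the 92 genes on this list, 57 were tested, with a median of 0.23. At an unadjusted p under 0.05, 34 of the 57 were higher (59.6%), RPS19BP1 among them, beside 8.1% of all features. Only 1, RPL22L1, was lower, beside 8.15% of all features. RPS27 was the highest at 0.67 ± 0.17 (SE).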

How the data were processed

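RNA was extracted with Trizol, libraries were made with a NEBNext Ultra kit, and sequencing was done by a company on an Illumina HiSeq 2500. The submitters' processing notes name bcl2fastq, HISAT2, DESeq2 and GRCh38, the paper names Cuffdiff, and the assembler and annotation are not given in the sources used here. The deposited table holds 1 signal for each feature and library, which is the read count scaled by the authors with a size factor of that library. It is not corrected for gene length, so where genes are ranked by counts, the ranking is not one of transcript levels. Dividing by each library's step gave whole reads for 100% of values (tolerance 0.01), and a value of 0 leaves room for up to 3 reads.

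The 21703 features that averaged 10 or more normalized counts were log2-transformed after adding 1 and compared with limma (version 3.58.1, R 4.3.3, trended variance), and p-values were two-sided and adjusted by the Benjamini-Hochberg method over all of them. Fold changes are on this log2 scale, which understates those of low genes. The exact permutation test of 3 against 3 libraries cannot go below p = 0.1. The alternatives were pseudocounts, filters, TMM and quantile scaling, a replicate block, leaving out each library, and edgeR 4.0.16 and DESeq2 1.42.0 on the recovered reads. The limma, edgeR and DESeq2 comparisons were tried on simulated counts, and the other steps were not. Gene types and coordinates are from GENCODE 29 on GRCh38, and promoters from RefSeq on GRCh38.p14. Symbols are from a separate list of current gene names, and were found for 25595 of 25927 Ensembl identifiers.

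HPSE, each member at an unadjusted p under 0.05, and in each group the highest and lowest fold change and the highest mean were named, and of other lists the highest and lowest fold change. Further members were named after their values were seen, and 1 member that the rule names is not reported here. The members and lists were chosen with earlier results of these data known. The promoter letters searched were chosen after the values were seen, and TGCGCA replaced a longer form of the NRF1 site that was searched first.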

Additional observations from a re-analysis of the deposited data

How the results depend on the processing

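Over the 14 alternatives the median log2 fold change of the members stayed above 0, from 0.09 without the first SW480-NC library to 0.17 without the third. The count at an adjusted p under 0.05 was 1 (NDUFB3) with a pseudocount of 5, without a filter, with a mean of at least 50 and with TMM, 0 with quantile normalization, with the replicate block, with edgeR and when any library was left out, and 5 with DESeq2. Of all features tested, 162 to 232 passed with the alternatives that gave a count of 1. Those that passed numbered 119 with quantile normalization, 12 with the replicate block, 136 with edgeR, 29 to 93 when a library was left out and 756 with DESeq2. The log2 fold change of NDUFB3 was 0.51 to 0.61 when any library was left out. At an unadjusted p under 0.05, 17 were higher with quantile normalization. Leaving out a library gave 7 to 19 higher, beside 5.65% to 8.69% of all features. Lower members numbered 1 (NDUFA6) without a filter and with the replicate block. They numbered 0 to 2 when a library was left out, beside 5.60% to 8.46% of all features. The shares of all features with quantile normalization, without a filter and with the replicate block are not given here. Members whose libraries did not overlap numbered 15 to 29 higher and 0 to 4 lower when a library was left out, beside 15.4% to 18.5% of all features higher and 15.8% to 18.9% lower under the same omissions. The medians by group were then 0.11 to 0.19 for the accessory subunits of complex I, −0.021 to 0.14 for its core, −0.020 to 0.054 for its assembly factors, 0.036 to 0.16 for complex II, 0.084 to 0.22 for complex III, 0.15 to 0.22 for complex IV and 0.095 to 0.16 for complex V.

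HPSE passed an adjusted p of 0.05 without a filter (log2 fold change −0.83, adjusted p 0.0451), with a mean of at least 50 (−0.83, 0.0460) and with DESeq2 (−0.83, 0.000948), with a range of adjusted p over all alternatives from 0.000948 to 0.199. Members near 0 changed sign when a library was left out, with log2 fold changes from −0.020 to 0.057 for NDUFAF2, −0.052 to 0.19 for COX4I1, −0.35 to 0.031 for NDUFS7 and −0.017 to 0.063 for SDHB. The cause of these changes was not tested.

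Same-numbered libraries of the groups did not deviate together (r = 0.0025, −0.0202 and 0.0074). These values cannot show whether libraries of the same number were prepared together. The replicate block left 12 features of all 21703 past the adjusted threshold, against 174 without it.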
